A study of Mus musculus with 11 samples.

Results

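The transforming growth factor beta (TGF-beta) and activin branch of signalling was followed through 10 genes in the infarcted mouse heart. These genes were chosen by symbol from the 55421 genes of a count table, with earlier results of these data known. They are the 3 TGF-beta isoforms Tgfb1, Tgfb2 and Tgfb3, the receptors Tgfbr1 and Tgfbr2, the matrix protein gene Ltbp2, the activin subunits Inhba and Inhbb, and the activin antagonists Fst and Fstl3. All 10 symbols matched 1 row each. RNA came from 11 female C57BL/6J mice aged 8 weeks. In 8 of them the left anterior descending coronary artery was permanently ligated to cause a myocardial infarction (MI), and tissue of the infarct and its border zone was taken 3 days later. Among these, 4 mice received the hydroxamate ADAM10 inhibitor GI254023X (A10i) at 100 mg/kg from an osmotic minipump, and 4 were given its solvent, DMSO. A sham operation was performed on the last 3 mice, which were given DMSO as well and from which healthy tissue was taken, so ligation and the kind of tissue taken changed together.

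TGF-beta is secreted as an inactive dimer, held by its own propeptide and by latent TGF-beta binding proteins in the matrix, and is set free by integrins, thrombospondin or proteases. The active ligand binds the type II receptor TGFBR2, which recruits and phosphorylates the type I receptor TGFBR1, and this kinase activates SMAD2 and SMAD3. Activins, dimers of the inhibin beta subunits, signal to the same SMADs through activin receptors and are neutralised outside the cell by follistatin (FST) and follistatin-like 3 (FSTL3). In the injured heart this signalling is known for driving fibroblasts towards matrix-producing myofibroblasts.

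The bases upstream of the genes are shown here for 4 members that differ in how far they moved after MI. Tgfb1 and Tgfb2 are isoforms of the same ligand family, Inhba is an activin subunit, and Fstl3 is the antagonist with the higher level. Each line gives the 250 bases before the RefSeq start on GRCm38.p6, 5′ to 3′ on the strand of the gene. Capitals mark the SMAD letters CAGACA, the TATA letters TATAAA, the SP1 letters GGGCGG and the AP-1 letters TGANTCA, each searched on both strands.
Tgfb1, chr7:25686752-25687001, plus strand: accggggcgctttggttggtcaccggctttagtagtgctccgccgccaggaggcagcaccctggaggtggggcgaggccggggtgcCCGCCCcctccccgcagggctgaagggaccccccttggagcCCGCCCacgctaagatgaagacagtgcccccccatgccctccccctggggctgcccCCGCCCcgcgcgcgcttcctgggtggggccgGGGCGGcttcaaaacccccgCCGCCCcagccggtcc
Tgfb2, chr1:186705990-186706239, minus strand: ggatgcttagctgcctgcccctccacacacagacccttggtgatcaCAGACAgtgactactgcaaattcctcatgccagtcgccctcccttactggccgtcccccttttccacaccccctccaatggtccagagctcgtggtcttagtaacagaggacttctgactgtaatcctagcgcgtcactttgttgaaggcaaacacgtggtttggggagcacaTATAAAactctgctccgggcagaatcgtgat
Inhba, chr13:16011601-16011850, plus strand: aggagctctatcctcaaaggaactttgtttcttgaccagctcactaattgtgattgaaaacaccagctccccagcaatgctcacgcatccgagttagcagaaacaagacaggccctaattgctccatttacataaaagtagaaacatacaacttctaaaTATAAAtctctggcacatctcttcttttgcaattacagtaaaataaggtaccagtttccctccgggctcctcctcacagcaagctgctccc
Fstl3, chr10:79777024-79777273, plus strand: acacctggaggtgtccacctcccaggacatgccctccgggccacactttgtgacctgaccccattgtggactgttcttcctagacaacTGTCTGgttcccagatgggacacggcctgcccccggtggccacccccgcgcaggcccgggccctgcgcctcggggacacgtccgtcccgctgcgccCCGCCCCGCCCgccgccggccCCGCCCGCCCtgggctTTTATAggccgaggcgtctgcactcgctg
The Tgfb1 window held the SP1 letters 5 times and was 75.2% G and C, against 53.2% over all 32851 windows of this kind. The window of Tgfb2 was 53.6% G and C, with the TATA letters beginning 31 bases and the SMAD letters 204 bases before the start. Inhba had the lowest share of G and C of the members with a window (43.2%), and its TATA letters began 91 bases before the start. In Fstl3 the TATA letters (29 bases before the start) and the SMAD letters (162 bases) stood on the opposite strand, beside 4 copies of the SP1 letters that overlapped neither. RefSeq windows were matched for 8 of the 10 members, 2 of them for Tgfbr1, and none for Tgfb3 and Fst. Of all windows, 32.7% held the SP1 letters, 17.1% the SMAD letters, 12.4% the TATA letters and 6.75% the AP-1 letters. The SMAD letters were also found in the downstream window of Tgfbr1, and the AP-1 letters in 0 of the 9 member windows. These are matches of letters, not measured binding sites.

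Each library held 21702623 to 29511768 counts on genes, and 7 to 77 of these fell on Fst, the member with the fewest. Levels are given in CPM, counts scaled to the library total after TMM normalization, and comparisons are edgeR's quasi-likelihood test on the libraries of the groups compared, called at a p-value of 0.01 adjusted by Benjamini-Hochberg over all genes tested. All 10 cardiomyocyte markers were detected in every group, with a summed level of 83441 to 85450 CPM in sham, 42057 to 61318 in DMSO and 48062 to 66041 in A10i mice. In bulk tissue, fewer cells of a type cannot be told apart from less RNA per cell. Mice of a group varied more after MI, since the members' median SD of log2 CPM was 0.15 in the sham group against 0.37 with DMSO and 0.36 with A10i.

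Nearly every member was higher in infarcted than in sham mice. The members were chosen with earlier results of these data known. Their counts and medians beside those of all genes are a description and cannot show that this family stands out. In DMSO against sham, 9 of 10 members were higher at the threshold and 0 lower, where 12.9% of the 17117 genes tested were called higher and 9.6% lower. In every member, Tgfb3 included, each of the 4 DMSO mice lay above each of the 3 sham mice, a pattern seen in 25.6% of all genes tested, while 22.8% lay wholly below. The members' median log2 fold change was 2.07, beside 0.0021 for all genes tested. Leaving out sham mouse S1, S2 or S3 cut the number called to 5 each time, because Tgfbr1, Tgfbr2, Ltbp2 and Fst then had edgeR adjusted p-values of 0.0104 to 0.0321. Their fold changes without S1, S2 or S3 stayed positive. In A10i against sham, all 10 members were called higher and 0 lower, where 13.7% of 16971 genes were called higher and 9.11% lower. Again each A10i mouse lay above each sham mouse in all 10 members, against 24.8% of all genes wholly above and 23.4% wholly below, and the members' median was 1.70 beside -0.0054. Without S1, S2 or S3 the number called was 7, 8 and 8. Both comparisons use the same 3 sham mice. Scaling by library size alone moved the median of all genes by more than 0.1 (to 0.21 in DMSO and 0.18 in A10i against sham) and the share of higher calls from 57.4 to 82.5% and from 60.1 to 85.6%. All 10 members remained positive in both comparisons under that scaling too, with medians of 2.28 and 1.89.

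**Figure D1:**
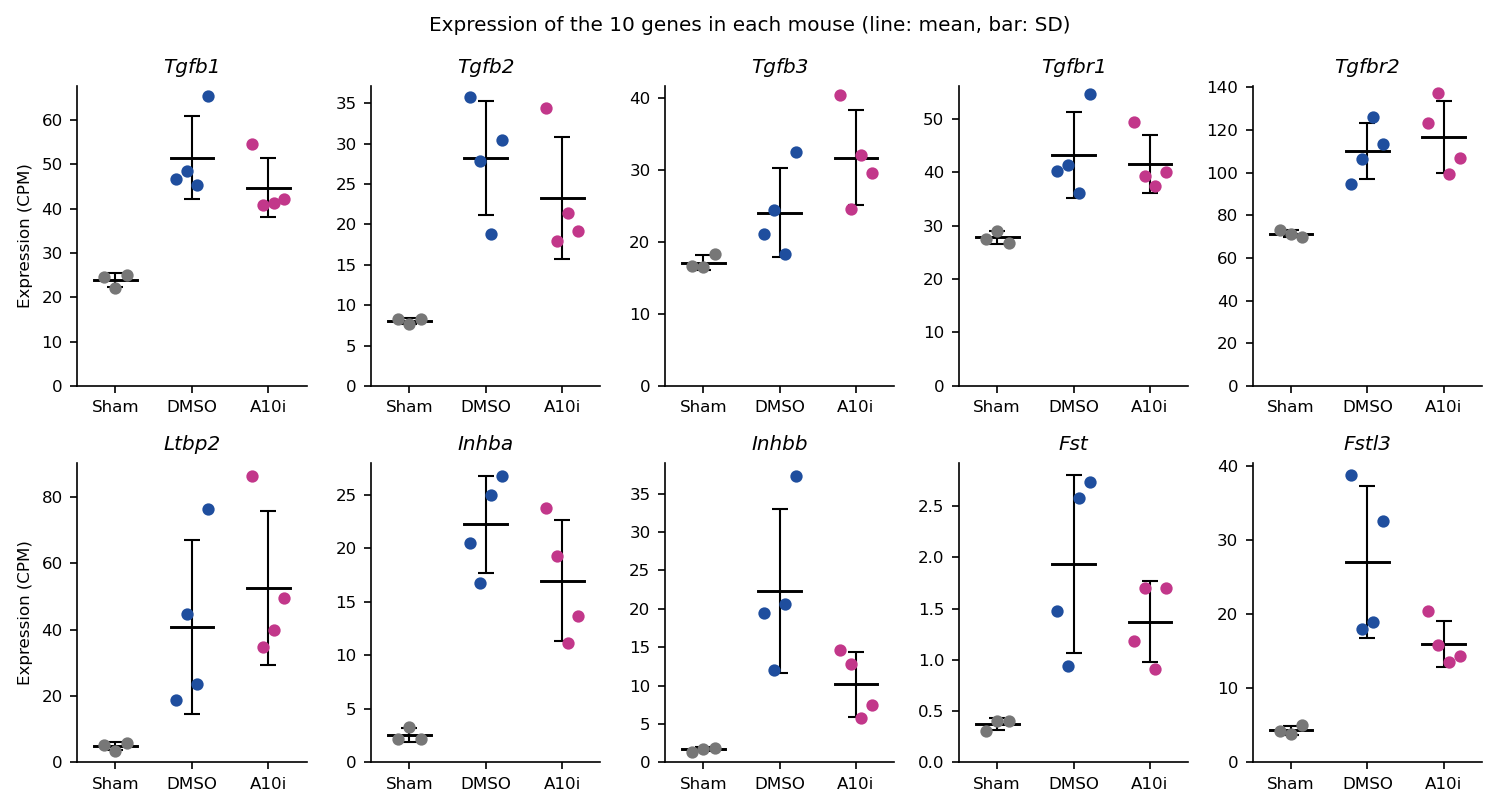
Expression of each of the 10 genes in CPM (vertical axis from 0, its own scale per gene) in the 3 sham, 4 DMSO and 4 A10i mice. Points are mice, horizontal lines group means and bars SD. In every panel all infarcted mice lie above all sham mice, while the DMSO and A10i points overlap.

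Among the ligands, Tgfb1 (ENSMUSG00000002603), the isoform made by many immune and stromal cells, was measured at 24.6, 22.05 and 25.1 CPM in the sham mice S1, S2 and S3. In DMSO mice A105, A127, A128 and A129 it was 46.8, 48.5, 45.3 and 65.5 CPM, and in A10i mice A116, A117, A119 and A120 it was 54.6, 40.7, 41.4 and 42.1 CPM. Mice A129 and A116 stood above the others of their groups. Tgfb1 was 2.14-fold higher in DMSO than in sham mice (log2 fold change 1.10 ± 0.14 SE, edgeR adjusted p = 0.000473). In A10i mice it was 1.87-fold higher than in sham (0.91 ± 0.11, edgeR adjusted p = 0.000389). Without mouse A116, which lay farthest from its group, the log2 fold change against sham was 0.80.

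Tgfb2 (ENSMUSG00000039239), an isoform known for its part in heart development, had the largest fold change of the 3 isoforms against sham in both groups. Sham mice gave 8.31, 7.65 and 8.24 CPM, DMSO mice 35.7, 27.9, 18.8 and 30.4 CPM, and A10i mice 34.4, 18.0, 21.4 and 19.2 CPM. The lowest infarcted mouse, A117, was still above 2 times the highest sham value. The change was 3.47-fold in DMSO (log2 1.79 ± 0.20, edgeR adjusted p = 0.000333) and 2.89-fold in A10i mice (1.53 ± 0.23, edgeR adjusted p = 0.00124).

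Tgfb3 (ENSMUSG00000021253), the isoform known for its part in closure of the palate, was the member not called in DMSO mice. It was at 16.7, 16.5 and 18.3 CPM in sham, 21.1, 24.4, 18.3 and 32.6 CPM in DMSO, and 40.5, 24.7, 32.1 and 29.6 CPM in A10i mice. Mouse A128 lay only just above the highest sham mouse, whereas the lowest A10i mouse, A117, was at 24.7 CPM. Against sham the log2 fold change was 0.48 ± 0.18 in DMSO mice, which was not called (edgeR adjusted p = 0.0609), and 0.89 ± 0.15 in A10i mice, which was (edgeR adjusted p = 0.00200). That call was lost without sham mouse S1 (adjusted p = 0.0132) or S2 (adjusted p = 0.0122). The direct difference between A10i and DMSO is given further on.

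The receptors had small changes. Tgfbr2 (ENSMUSG00000032440), the type II receptor that binds the ligand, read 73.1, 71.4 and 69.8 CPM in sham, 94.9, 107, 126 and 113 CPM in DMSO, and 123, 137, 99.4 and 107 CPM in A10i mice. The ranges of the infarcted groups overlapped, with A117 the highest and A105 the lowest of the 8 mice. Its log2 fold changes were 0.62 ± 0.10 in DMSO (edgeR adjusted p = 0.00143) and 0.71 ± 0.11 in A10i mice (edgeR adjusted p = 0.000886). Tgfbr1 (ENSMUSG00000007613), the signalling type I receptor, was at 27.5, 29.1 and 26.7 CPM in sham mice. DMSO mice had 40.2, 41.4, 36.2 and 54.7 CPM and A10i mice 49.4, 39.2, 37.4 and 39.9 CPM. As for Tgfb1, the high mice were A129 and A116. The log2 fold changes of Tgfbr1 were 0.63 ± 0.14 in DMSO (edgeR adjusted p = 0.00611) and 0.58 ± 0.10 in A10i mice (edgeR adjusted p = 0.00164). In A10i against sham, Tgfbr1 lost its call without S1 (adjusted p = 0.0115) or S3 (adjusted p = 0.0118), and in DMSO against sham also without mouse A127 (adjusted p = 0.0131).

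Ltbp2 (ENSMUSG00000002020) encodes a microfibril protein of the latent TGF-beta binding protein family that, unlike its relatives, does not bind latent TGF-beta. It ran from 3.53 CPM in S2 to 5.22 in S1 and 5.79 in S3. The infarcted mice spread widely, with 18.8, 44.8, 23.7 and 76.5 CPM in DMSO and 86.3, 34.9, 40.0 and 49.5 CPM in A10i mice. The lowest of them, A105, was more than 3 times the highest sham mouse. Ltbp2 was 8.44-fold higher in DMSO (log2 3.08 ± 0.53, edgeR adjusted p = 0.00298) and 10.9-fold higher in A10i mice (3.45 ± 0.37, edgeR adjusted p = 0.000471), with the widest error of the 10 genes in DMSO against sham. Without any filter on low counts, the DMSO call was lost (adjusted p = 0.0268), over a range of 1.48e-06 to 0.0268 in all 15 alternatives. Among the 8 infarcted mice, the order of Ltbp2 followed the summed level of 8 markers of activated fibroblasts, except that A127 and A119 changed places. That sum was lowest in A105 (672 CPM) and highest in A129 (2241 CPM) and A116 (2914 CPM) and lay at 234 to 283 CPM in sham mice, where the orders differed. Of these 8 markers, 5 were called higher in DMSO and 6 in A10i mice, and none was at 0 in any group. Such an order was not particular to activated fibroblasts. In infarcted mice the summed general fibroblast markers gave the order of Ltbp2 except for the place of A127. Macrophage markers were also lowest in A105 and A128 and highest in A129 and A116. The part of fibroblast content in the Ltbp2 values was not tested.

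The activin subunits had large changes. Inhba (ENSMUSG00000041324), whose dimer is activin A, was low in sham mice, at 2.22, 3.30 and 2.17 CPM. It reached 20.5, 16.7, 25.0 and 26.8 CPM in DMSO mice and 23.7, 19.3, 11.1 and 13.7 CPM in A10i mice. Every infarcted mouse exceeded every sham mouse by more than 3 times. The rise was 8.56-fold in DMSO (log2 3.10 ± 0.22, edgeR adjusted p = 4.4e-05) and 6.59-fold in A10i mice (2.72 ± 0.30, edgeR adjusted p = 0.000430). Inhbb (ENSMUSG00000037035), whose dimer is activin B, was at 1.39, 1.78 and 1.93 CPM in sham mice. DMSO mice had 19.4, 12.0, 20.6 and 37.3 CPM, and A10i mice 14.6, 12.8, 5.75 and 7.43 CPM. Of the DMSO mice A129 stood highest and A127 lowest, and 2 of the 4 A10i mice lay within the DMSO range. In DMSO mice Inhbb was above sham by the largest member change in that comparison (log2 fold change 3.70 ± 0.41, edgeR adjusted p = 0.000368). In A10i mice it was 5.96-fold above sham (2.57 ± 0.36, edgeR adjusted p = 0.000990).

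Both antagonists rose with the activins. Fstl3 (ENSMUSG00000020325), a secreted binder of activin, was measured at 4.18, 3.82 and 5.03 CPM in sham, 38.7, 18.0, 18.9 and 32.6 CPM in DMSO, and 20.5, 15.8, 13.5 and 14.3 CPM in A10i mice. Mice A105 and A129 were far above the other DMSO mice. The log2 fold changes of Fstl3 were 2.63 ± 0.31 in DMSO (edgeR adjusted p = 0.000467) and 1.89 ± 0.17 in A10i mice (edgeR adjusted p = 0.000115). Fst (ENSMUSG00000021765), the classical follistatin, was the rarest member at 0.30, 0.41 and 0.40 CPM in sham mice, which is 7 to 11 counts. DMSO mice had 1.48, 0.94, 2.58 and 2.73 CPM and A10i mice 1.19, 1.70, 0.91 and 1.70 CPM. Its log2 fold changes were 2.35 ± 0.44 in DMSO (edgeR adjusted p = 0.00273) and 1.87 ± 0.33 in A10i mice (edgeR adjusted p = 0.00190). Fst was not called by limma-voom in DMSO against sham (adjusted p = 0.0113, within 1.27e-05 to 0.0167 over 14 alternatives). In A10i against sham its call was lost without sham mouse S1, S2 or S3, at adjusted p-values of up to 0.0125.

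**Figure D2:**
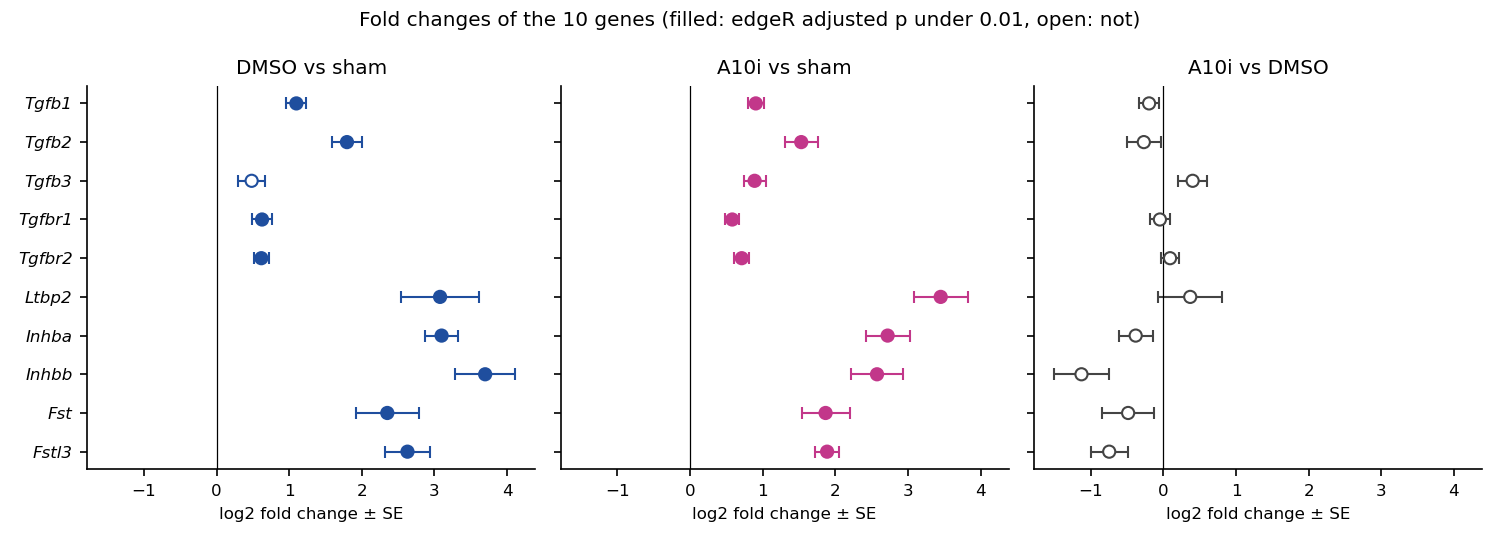
Log2 fold changes with SE (horizontal axis) of the 10 genes in the 3 comparisons. Filled points passed an edgeR adjusted p of 0.01. In DMSO against sham 9 points are filled, with Tgfb3 open, in A10i against sham all 10 are filled, and in A10i against DMSO 0 are, where Inhbb lies farthest from 0 at -1.13.

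Between A10i and DMSO, edgeR called 0 of the 10 members and 0 of 16792 genes at the threshold (0% of all genes), and 2 members, Inhbb and Fstl3, had an unadjusted p under 0.05. Both were lower with A10i. At that unadjusted level 6.73% of all genes were lower and 7.1% higher. DESeq2 also called 0 members, while calling 104 of 31662 genes higher (0.328%) and 123 lower (0.388%), and limma-voom called 0 members and 0 genes. The 31662 are all genes with any count, a wider set than edgeR's filtered 16792, so the shares are not alike. The mice of the groups overlapped in all 10 members, whereas 3.78% of all genes lay wholly above and 4.4% wholly below. Inhbb had a mean of 10.1 ± 4.22 CPM in A10i and 22.3 ± 10.6 CPM in DMSO mice (SD, n = 4 each), a log2 fold change of -1.13 ± 0.37 (SE, unadjusted p = 0.0138 and adjusted p = 0.234 by edgeR). Fstl3 had 16.02 ± 3.12 and 27.1 ± 10.2 CPM, a log2 fold change of -0.75 ± 0.26 (unadjusted p = 0.0162 and adjusted p = 0.245 by edgeR). DESeq2's adjusted p was 0.0487 for Inhbb and 0.0895 for Fstl3. Over all 16 alternatives the adjusted p ran from 0.0487 to 0.553 for Inhbb and from 0.0895 to 0.536 for Fstl3. Tgfb3 pointed upwards, with 31.7 ± 6.61 CPM in A10i and 24.1 ± 6.16 CPM in DMSO mice (log2 0.40 ± 0.20, edgeR adjusted p = 0.404). Ltbp2 (0.37 ± 0.44) and Tgfbr2 (0.09 ± 0.12) were the other members with a positive estimate. That of Ltbp2 ran from 0.028 without A116 and 0.14 without A105 to 0.87 without A129. The rest were estimated at -0.05 (Tgfbr1, SE 0.14) to -0.48 (Fst, SE 0.36), with edgeR adjusted p-values of 0.519 to 0.913, and the members' median was -0.23 beside 0.0034 for all genes.

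Markers of other cells differed between the same mice. The summed level of 10 neutrophil markers was 88.3 to 178 CPM in DMSO and 15.9 to 60.4 CPM in A10i mice without overlap, and 1.74 to 3.05 CPM in sham mice, where 2 of the 10, Ly6g and Trem1, were at 0 in every library. Of 9 neutrophil markers tested, 9 were called in DMSO and 8 in A10i against sham. In sham mice 7 of the 10 markers had at most 3 counts in every library. Between A10i and DMSO 0 of the 9 were called, where edgeR called 0 of all 16792 genes tested. Their median log2 fold change there was -1.84. Inhbb was highest in A129, which had the highest neutrophil sum, and lowest in A119, which had the lowest of the infarcted mice. This match at the ends was not particular to neutrophils. Monocyte sums (286 and 130 CPM) and platelet sums (61.8 and 24.6 CPM) were also highest in A129 and lowest in A119 among infarcted mice. Cardiomyocyte sums were the reverse, lowest in A129 (42057 CPM) and highest in A119 (66041 CPM). Between A129 and A119 the orders of Inhbb and of the neutrophil sum differed. A127 had a higher neutrophil sum than A116 and A117 but less Inhbb (12.0 against 14.6 and 12.8 CPM). The part of neutrophil content in the Inhbb values was not tested. Endothelial markers summed to 1200 to 1300 CPM in DMSO and 1423 to 1604 CPM in A10i mice, again without overlap, and 0 of 8 were called between them. Macrophage markers summed to 584 to 993 CPM in DMSO and 779 to 1452 CPM in A10i mice. Fibroblast markers summed to 2836 to 6452 CPM in DMSO and 5996 to 8913 CPM in A10i mice. A sum is weighted towards the most abundant markers. The median log2 fold change of the fibroblast markers against sham was 0.40 in DMSO and 0.65 in A10i mice.

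**Figure D3:**
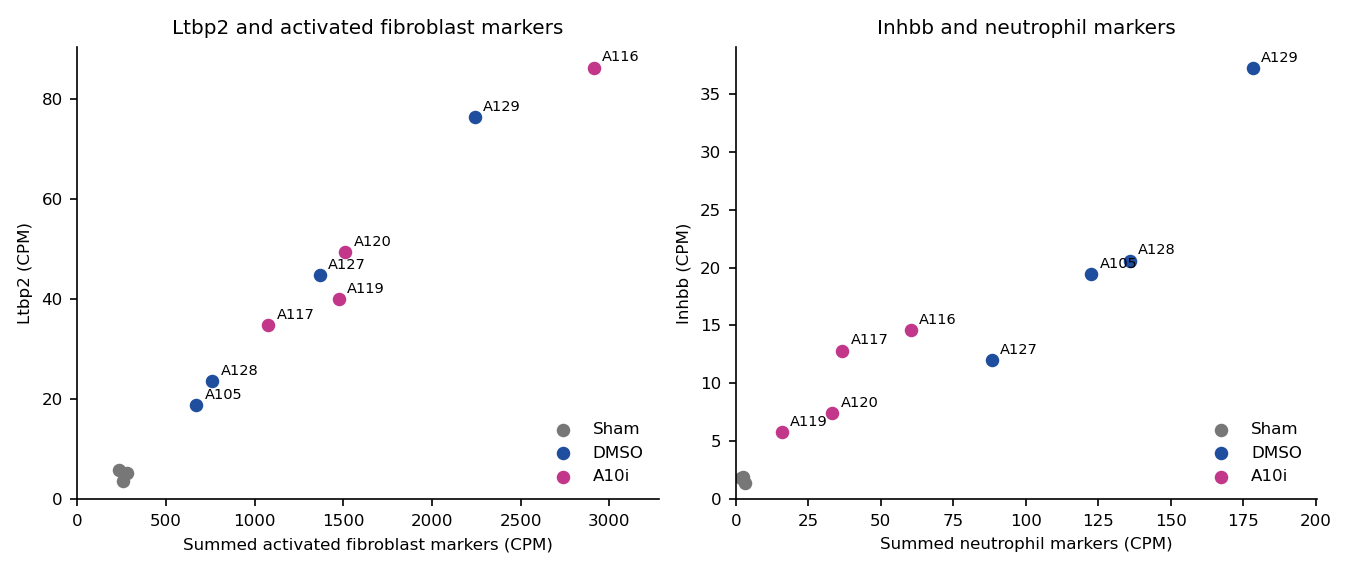
Left, Ltbp2 against the summed level of 8 activated fibroblast markers, and right, Inhbb against that of 10 neutrophil markers, all in CPM, with 1 point per mouse. The pairs were chosen after their values were seen. Mice A116 and A129 are at the top of the left plot, and A129 is at the top of the right plot, where A10i mice reach at most 60.4 CPM of neutrophil markers.

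Within a library, the balance of the isoforms does not depend on library size. Per kilobase of exon, Tgfb3 made up 43.8, 46.1 and 45.9% of the isoform transcripts in sham mice, 28.8, 33.4, 30.8 and 34.5% in DMSO mice, and 41.7, 39.5, 44.3 and 42.9% in A10i mice. The DMSO shares lay below all sham and all A10i shares. Sham mice had a mean share of 45.3 ± 1.26%, DMSO mice of 31.9 ± 2.59% and A10i mice of 42.1 ± 2.05% (SD). A10i exceeded DMSO by 10.2 percentage points (exact permutation test, two-sided, p = 0.0286, the smallest that 4 against 4 mice allow, and 0.171 after adjustment over 15 such tests). Leaving out any 1 mouse, or using raw counts, gave 8.76 to 11.1 points. DMSO lay 13.4 points below sham (difference -13.4, exact permutation p = 0.0571, the smallest for 4 against 3, adjusted 0.171), and A10i differed from sham by -3.16 points (exact permutation p = 0.114, adjusted 0.190) with overlap. In none of the 3 comparisons did the Tgfb3 share pass 0.05 after adjustment. With 4 against 3 mice in most of the 15 tests, no adjusted value could, so that threshold decides nothing here. The fibroblast marker sums given above were 2458 to 2606 CPM in sham mice, lower than in all infarcted mice. Endothelial markers summed to 1434 to 1443 CPM in sham mice, and the DMSO sums lay below all sham and all A10i sums. The part of cell content in the Tgfb3 share was not tested.

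Tgfb2 made up 12.0 to 12.8% in sham mice, 18.4 to 28.4% in DMSO mice, highest in A105, and 16.2 to 20.7% in A10i mice, highest in A116. All infarcted mice lay above all sham mice, with exact permutation p = 0.0571 for both groups and an adjusted value of 0.171. That p is the smallest that 4 against 3 mice allow, so neither difference could pass 0.05. The share of Tgfb1 was 41.4 to 43.4% in sham, 42.8 to 50.9% in DMSO and 37.7 to 43.7% in A10i mice, with overlap in every comparison. The ratio of the activin subunit Inhba to the summed antagonists Fst and Fstl3, per kilobase, was 0.159 to 0.313 in sham, 0.198 to 0.471 in DMSO and 0.305 to 0.442 in A10i mice. These ranges overlapped in all 3 comparisons (exact permutation p = 0.114 to 0.486). The ratio of Tgfb1 to its receptor Tgfbr2 was 0.501 to 0.584 in sham, 0.583 to 0.939 in DMSO and 0.481 to 0.718 in A10i mice, also with overlap (exact permutation p = 0.114 to 0.286).

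**Figure D4:**
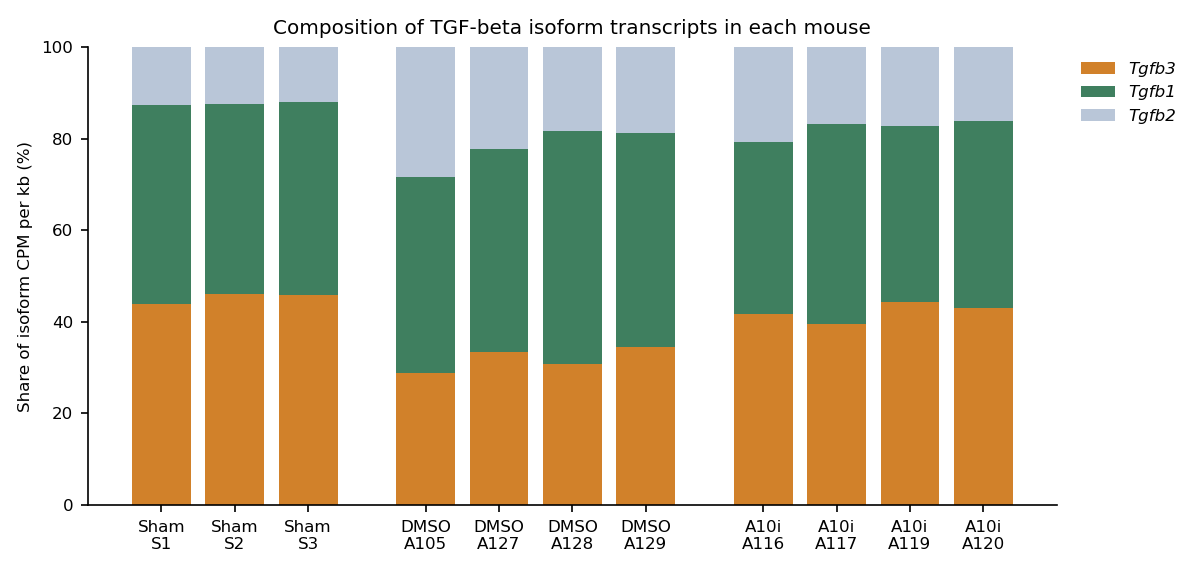
Share of Tgfb3, Tgfb1 and Tgfb2 in the summed CPM per kilobase of the 3 isoforms (vertical axis, percent), with 1 stacked bar per mouse. The Tgfb3 part at the bottom is 28.8 to 34.5% in DMSO mice and 39.5 to 46.1% in all other mice.

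Levels per kilobase placed the members in an order that differed between sham and infarcted mice. Tgfbr2 was highest in all 3 groups, at 8.72 ± 0.20, 13.5 ± 1.59 and 14.3 ± 2.07 CPM per kb in sham, DMSO and A10i mice (SD). It was separate from the next gene in sham and A10i mice, but its DMSO libraries overlapped those of Fstl3. Fst was lowest throughout, at 0.081 ± 0.013, 0.42 ± 0.19 and 0.30 ± 0.086 CPM per kb, and in each group its libraries lay below those of the next gene. In sham hearts Tgfb3, Tgfb1 and Tgfbr1 followed Tgfbr2 at 5.07, 4.74 and 4.25 CPM per kb with overlap between neighbours. Fstl3 (1.78 CPM per kb) and Tgfb2 (1.39) then came as separate steps, and Ltbp2, Inhba and Inhbb (0.59, 0.40 and 0.40) overlapped. Fstl3 rose from rank 5 in sham to rank 2 in DMSO mice (11.1 ± 4.19 CPM per kb) and stood at rank 4 in A10i mice (6.55 ± 1.27). From rank 1 to rank 9, each DMSO gene overlapped its neighbour. In A10i mice each gene from Tgfb3 at rank 2 to Inhba at rank 8 overlapped the next.

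**Figure D5:**
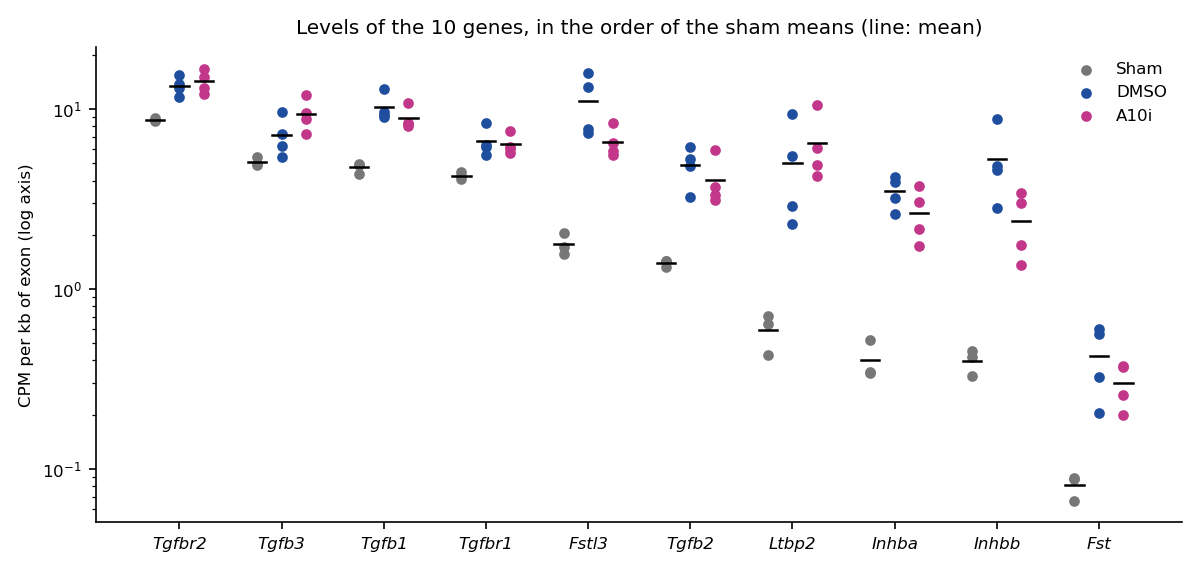
CPM per kilobase of exon (log axis) of the 10 genes, ordered by the sham mean, with 1 point per mouse and a line at each mean. Tgfbr2 is on top and Fst at the bottom in all 3 groups, and the 5 genes from Tgfb2 rightwards, with Fstl3, show the widest gaps between sham and infarcted mice.

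The mice did not contribute evenly. Among DMSO mice A129 held the highest value in 7 of the 10 members, and among A10i mice A116 held it in 8. Mouse A119 was lowest of its group in 6 members. A129 and A116 also had the lowest cardiomyocyte sums of their groups (42057 and 48062 CPM). Tgfbr2 did not follow these mice in either group, being highest in A128 and in A117. Tgfb2 and Fstl3 were highest in A105 among DMSO mice, and Fst in A120 among A10i mice.

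For the 7 members whose group means spanned at least 1 on the log2 scale, the nearest genes were sought among 17480 by the root mean square difference of log2 CPM from the sham mean over all 11 mice. Ltbp2 lay nearest to the collagen genes Col1a1 (0.30) and Col12a1 (0.32). Tgfb1 lay nearest to Txndc5 (0.084), a disulfide isomerase of the endoplasmic reticulum, and Sec61a1 (0.089), a subunit of its protein channel. Inhba was nearest to Snai1 (0.27), a transcription factor gene, and Aldh1a2 (0.30), which makes retinoic acid. For Inhbb the nearest were Plaur (0.32), the urokinase receptor, and Fcrlb (0.33), and Inhba came at rank 8 (0.42). Fstl3 lay nearest to Cd44 (0.23), a hyaluronan receptor, and 2200002D01Rik (0.25), Fst to Fut2 (0.27) and Glis3 (0.28), and Tgfb2 to Tubb2a (0.19) and Entpd7 (0.20). These differences describe the shared course over mice of all groups and carry no test.

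Around the members, 60 further pathway genes in 6 lists were read, of which 54 were tested. These lists too were chosen with earlier results known, so their counts beside the shares of all genes are a description only. In DMSO against sham 19 were called higher and 4 lower (median log2 fold change 0.26), beside 12.9% and 9.6% of all genes, and in A10i against sham 23 higher and 4 lower (0.22), beside 13.7% and 9.11%. The 4 lower genes of 54 in each comparison are a share near that of all genes. Without S1, S2 or S3, 11, 14 and 12 genes were called in DMSO against sham and 14, 16 and 16 in A10i against sham. The list of 11 TGF-beta target genes had 9 called higher in DMSO (median 1.12) and 10 in A10i mice (median 1.51). Ccn2, a matricellular protein gene, had means of 71.5, 493 and 307 CPM in sham, DMSO and A10i mice, with log2 fold changes of 2.77 ± 0.21 and 2.11 ± 0.14 against sham. Postn (2.65 and 3.63) and Cthrc1 (6.21 and 7.31), secreted matrix proteins that are also among the activated fibroblast markers, were higher in both groups. Their edgeR adjusted p-values were at most 0.00740.

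Genes of latency and activation included calls in both directions. In DMSO mice 6 of 13 were called higher and 2 lower, where 12.9% and 9.6% of all genes were. In A10i mice 8 were called higher and 3 lower, where 13.7% and 9.11% of all genes were. With so few genes, the lower calls are not read as a trait of the list. Thbs1, thrombospondin 1, an activator of latent TGF-beta, had means of 6.37, 170 and 84.5 CPM in sham, DMSO and A10i mice (log2 4.74 ± 0.35 and 3.74 ± 0.47). Itgb3, an integrin beta subunit, rose by 2.41 and 2.16, and Lrrc32, which anchors latent TGF-beta on cells, by 1.79 and 1.34 on the log2 scale. Itgb8, a subunit of another activating integrin, rose by 0.98 in DMSO and 1.34 in A10i mice. Ltbp4, a binder of latent TGF-beta, had log2 fold changes of -1.06 in DMSO and -0.60 in A10i mice, and Itgb6, an epithelial integrin subunit, of -2.04 and -0.91, each called lower in both groups.

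The remaining lists showed fewer calls, several of them near the shares over all genes. Those shares were 12.9% higher and 9.6% lower in DMSO against sham, and 13.7% and 9.11% in A10i against sham. Of 7 receptors and co-receptors tested, 0 were called higher and 2 lower in DMSO, and 1 higher and 1 lower in A10i mice. The activin type II receptor gene Acvr2b, at means of 4.31, 2.06 and 2.59 CPM in sham, DMSO and A10i mice, was called lower in both. Its log2 fold changes were -1.06 ± 0.26 in DMSO (edgeR adjusted p = 0.00991) and -0.73 ± 0.17 in A10i mice (edgeR adjusted p = 0.00817). Of 7 inhibitors tested, 2 were called higher in DMSO and 3 in A10i mice, with Bgn, the proteoglycan biglycan, at 1.28 and 1.58 and Vasn, the TGF-beta trap vasorin, at 1.05 and 1.04. Of 12 genes of SMAD transduction, 2 were higher in DMSO mice, the corepressors Tgif1 (1.21 ± 0.18) and Tgif2 (2.01 ± 0.39), and 1 in A10i mice, Tgif1 (1.05 ± 0.21). Both counts are near the shares over all genes, and Tgif2 was low in sham mice (0.48 ± 0.26 CPM, SD). Of 8 other ligands and co-factors 4 were tested and 0 called in either comparison by edgeR, with 1 at an unadjusted p under 0.05 in DMSO and 0 in A10i mice. Between A10i and DMSO edgeR called 0 of the 54, and 8 were higher and 8 lower at an unadjusted p under 0.05, where 7.1% and 6.73% of all genes were. DESeq2 called 2 there, among them Fmod, the proteoglycan fibromodulin, at a log2 fold change of 0.83 (adjusted p = 0.00659), named after its value was seen. limma-voom called 0.

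Some counts carry an overlap with another gene. Exons of Tgfb2, Tgfb3, Ltbp2, Fst and Fstl3 share bases with genes on the opposite strand, at most 1157 bases (Fstl3 and Prss57). The libraries were strand-specific, but the strand setting of the counting was not given in the sources used here. Each of those other genes had at most 11 counts in any library.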

How the data were processed

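Poly(A) RNA of 11 mouse hearts was sequenced as strand-specific paired reads. According to the submitters' notes and the study's methods, the authors aligned reads with GSNAP to mm10 and counted them with featureCounts 2.0.1 on Ensembl 98. The deposited values are raw counts per gene with an exon length, without normalization; 92 spike-in rows that name no gene were left out (at most 0.000194% of the counts of a library). Totals were 21702623 to 29511768 per library. Replicate pairs differed by more than counting error (chi-square per degree of freedom 3.80 to 55.2, 15 pairs). The labels name separate mice.

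Symbols and coordinates came from GENCODE M21 on GRCm38, the assembly of mm10 (55154 of 55421 identifiers named). Fits used R 4.3.3 with edgeR 4.0.16: filterByExpr, TMM and a two-sided quasi-likelihood F-test with robust dispersion estimates, on the libraries of the groups compared. SE is the log2 fold change over the root of F. CPM were divided by exon length in kilobases to compare genes. Shares and ratios were compared with exact permutation tests, 15 in all, adjusted by Benjamini-Hochberg. Alternatives were DESeq2 1.42.0, limma-voom (limma 3.58.1), other scalings, filters and thresholds, a joint fit of 11 libraries, raw counts for ratios, and leaving out each library. The script was tested on simulated data. The named genes are the 10 members, up to 4 genes per direction of each pathway list past the threshold with a log2 fold change of at least 1 in size, and the 2 nearest genes of each member whose group means span 1 or more. The members and the gene lists were chosen with earlier results of these data known. A gene that the naming rule takes in is not reported here.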

Additional observations from a re-analysis of the deposited data

Results flagged for a closer look

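In 30 groups of 4 mice (10 members and 5 shares or ratios, in DMSO and in A10i mice), 1 mouse lay far from the rest of its group. Tgfb1 in A10i mouse A116 was at 54.6 CPM while the other 3 mice were at 40.7 to 42.1 CPM, so that the gap made up 0.886 of the group's range on the log2 scale, above Dixon's critical value for 4 samples. Chance flags about 1 in 20 groups. In data outside the comparisons, the 92 spike-in rows held 14 to 55 counts per library, above the limit of 3 counts that a count of 0 allows, with the highest total, 55 counts, in DMSO mouse A127.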

How the results depend on the processing

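All 10 members kept a positive log2 fold change against sham in both infarcted groups under every alternative that gave a value. A minimum of 10 counts in every library removed Fst in the comparisons with sham. Between A10i and DMSO, 0 members were called under any alternative, and 1 member changed direction: Tgfbr1, at 0.0020 without A10i mouse A119 and at 0.092 without DMSO mouse A129 (range -0.14 to 0.092 over the libraries left out). Without a filter on low counts, Tgfb2 lost its call in A10i against sham (adjusted p = 0.0116); the cause was not tested. Leaving out 1 library gave 5 to 9 members called in DMSO against sham, 11 to 25 pathway genes, 922 to 2288 genes higher and 565 to 1763 lower. In A10i against sham it gave 14 to 28 pathway genes, 1062 to 2544 genes higher and 543 to 1821 lower, and in A10i against DMSO 0 to 1 higher and 0 to 1 lower. The fewest calls came without a sham mouse, which leaves 2 sham mice. A threshold of 0.05 called 3687 genes higher and 3145 lower in DMSO against sham, 3687 and 2984 in A10i against sham, and 3 and 9 in A10i against DMSO. Library size alone called 3330 higher and 708 lower in DMSO against sham, and 577 lower in A10i against sham. The joint fit of 11 libraries called 932 lower in A10i against sham, and 2 higher and 9 lower in A10i against DMSO. For A10i against DMSO, DESeq2 called 104 genes higher and 123 lower, 2 of them pathway genes, and the fit without a filter 18 and 25. The cause of these shifts was not tested. No paired analysis was possible because the groups share no replicate numbers. Shares and ratios kept their direction in all 125 alternatives. Depth limits Fst most, at 7 to 11 counts in sham mice.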
